A study of Arabidopsis thaliana with 6 samples.

Results

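Aquaporins are membrane channels of the major intrinsic protein family that let water and small neutral solutes cross membranes down a gradient. Each channel has a pair of short loops that dip into the pore from either side, and each loop usually carries the amino acids Asn-Pro-Ala (NPA box), where water passes in single file. Plant aquaporins fall into subfamilies by where they mostly sit. The plasma membrane intrinsic proteins (PIP1 and PIP2) set much of the water permeability of root and leaf cells, the tonoplast intrinsic proteins (TIP) serve the vacuole, the NOD26-like proteins (NIP) carry metalloids such as boric acid and arsenite, and the small basic proteins (SIP) sit in the endoplasmic reticulum. The genes described here are the 35 members of this family in Arabidopsis thaliana, taken by locus identifier from a deposited table of 27416 genes. They comprise 5 PIP1, 8 PIP2, 10 TIP, 9 NIP and 3 SIP genes, and all 35 were found in the table. The deposited table names genes by locus only, so family names were assigned to the loci and are written with a hyphen (PIP2-4 is AT5G60660).

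RNA abundance was measured in wild-type seedlings 7 days old. One group of 3 libraries came from seedlings that received water, and the other group of 3 from seedlings that received the peptide CLE9 at 200 nM. CLE9 belongs to the CLAVATA3/EMBRYO SURROUNDING REGION-related peptides, short signals that cells secrete and that receptor kinases perceive. How long the seedlings were exposed, and whether replicates came from separate cultures, is not stated in the sources used here. The p-values therefore speak only for the spread among these 6 libraries, and that spread may be technical.

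Values are FPKM (fragments per kilobase of transcript, scaled to the mapped fragments of each library), a level per transcript length, so levels of different genes can be set side by side. The table holds no counts. The depth, an approximate estimate from the FPKM values themselves, ranged from 20800000 to 31700000 fragments per library. At these depths a single fragment from a 1 kb transcript would correspond to about 0.0316 to 0.0481 FPKM. Replicate 2 stood apart in both groups. Across the 17812 genes tested, replicates 1 and 3 correlated at r = 0.991 in controls and 0.977 with CLE9, while replicate 2 correlated with them at between 0.838 and 0.879. Differences are therefore also given without both replicate 2 libraries.

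The reference coding sequences show what the family shares and which members are hard to tell apart. In-frame codons for Asn-Pro-Ala (AAT or AAC, then CCN, then GCN) were searched in 1 RefSeq coding sequence per gene, that of the lowest transcript accession (build TAIR10.1). All 5 PIP1, 8 PIP2 and 10 TIP genes held 2 such boxes. Among the 9 NIP genes 4 held 2 boxes, 4 held 1 and 1 held none, and the 3 SIP genes held 1 each. The gene without any was NIP5-1, a boric acid channel. The stretches below show the first box, in capitals, with 18 bases on either side, for PIP, TIP and NIP genes on which the results turn.
PIP1-1: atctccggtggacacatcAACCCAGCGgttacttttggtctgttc
PIP2-1: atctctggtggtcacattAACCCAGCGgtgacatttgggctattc
PIP2-2: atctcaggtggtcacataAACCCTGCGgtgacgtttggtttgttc
PIP2-3: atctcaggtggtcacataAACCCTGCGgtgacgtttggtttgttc
PIP2-4: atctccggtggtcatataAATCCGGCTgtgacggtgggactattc
TIP1-2: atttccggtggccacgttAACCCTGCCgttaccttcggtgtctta
TIP2-3: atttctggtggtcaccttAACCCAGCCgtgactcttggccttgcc
NIP3-1: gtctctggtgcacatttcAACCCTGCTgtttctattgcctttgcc
Over these 45 bases PIP2-4 differed from PIP2-2 at 10 positions, from PIP1-1 at 12, from TIP2-3 at 15 and from NIP3-1 at 19. PIP2-2 and PIP2-3 did not differ at all. Over the whole coding sequence these 2 genes were identical at 94.8% of 858 bases, with 45 differences and an identical run of 242 bases. The next closest pair was NIP4-1 and NIP4-2, at 88.0%.

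The part of the coding sequence in which PIP2-2 and PIP2-3 differ most is shown for both, with the differing bases in capitals. Within the coding sequence only such positions let a read be assigned to either gene. Other parts of the transcripts were not compared. The stretch shown spans bases 414 to 473, counted from the start codon, and holds 10 differences in 60 bases.
PIP2-2: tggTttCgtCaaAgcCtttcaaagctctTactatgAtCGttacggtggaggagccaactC
PIP2-3: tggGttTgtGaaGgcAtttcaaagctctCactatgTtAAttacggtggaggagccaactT
The 2 genes are neighbours on chromosome 2 in the deposited coordinates (TAIR10), PIP2-2 on the minus strand at 15613402 to 15614857 and PIP2-3 on the plus strand at 15617708 to 15619155, with 2850 bases between them. The sources used here do not say how reads that match both were treated, so their separate levels are uncertain.

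Several PIP and TIP genes were among the most abundant transcripts of the seedlings. Averaged over the 6 libraries, 12 of the 35 genes, all of them PIP or TIP, were at 100 FPKM or more. TIP1-2, a vacuolar water channel gene, ranked 35th of all 27416 genes, and TIP2-2, the lowest of the 12, ranked 851st. Together the family made up 1.31%, 0.637% and 1.46% of the summed FPKM in control replicates 1, 2 and 3, and 0.740%, 0.318% and 0.929% in CLE9 replicates 1, 2 and 3. In each replicate number the CLE9 library held the smaller share. The PIP1, PIP2 and TIP genes carried between 94.5% and 97.9% of the family's FPKM in every library.

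At the other end, 6 genes did not reach a mean of 1 FPKM and were not tested. TIP5-1, NIP4-1 and NIP4-2, known as pollen genes, were listed at 0 in all 6 libraries. TIP1-3, also known from pollen, was listed above 0 in control replicate 1 alone (0.0343 FPKM), and TIP3-1, a channel of seed storage vacuoles, in control replicate 2 alone (0.157 FPKM). NIP7-1, an anther boric acid channel, lay between 0.0949 and 0.166 FPKM. The comparisons concern the other 29 genes. One of these 29, NIP2-1, passed the filter only through CLE9 replicate 2. Another, TIP3-2, passed only through replicate 2 of both groups.

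**Figure D1:**
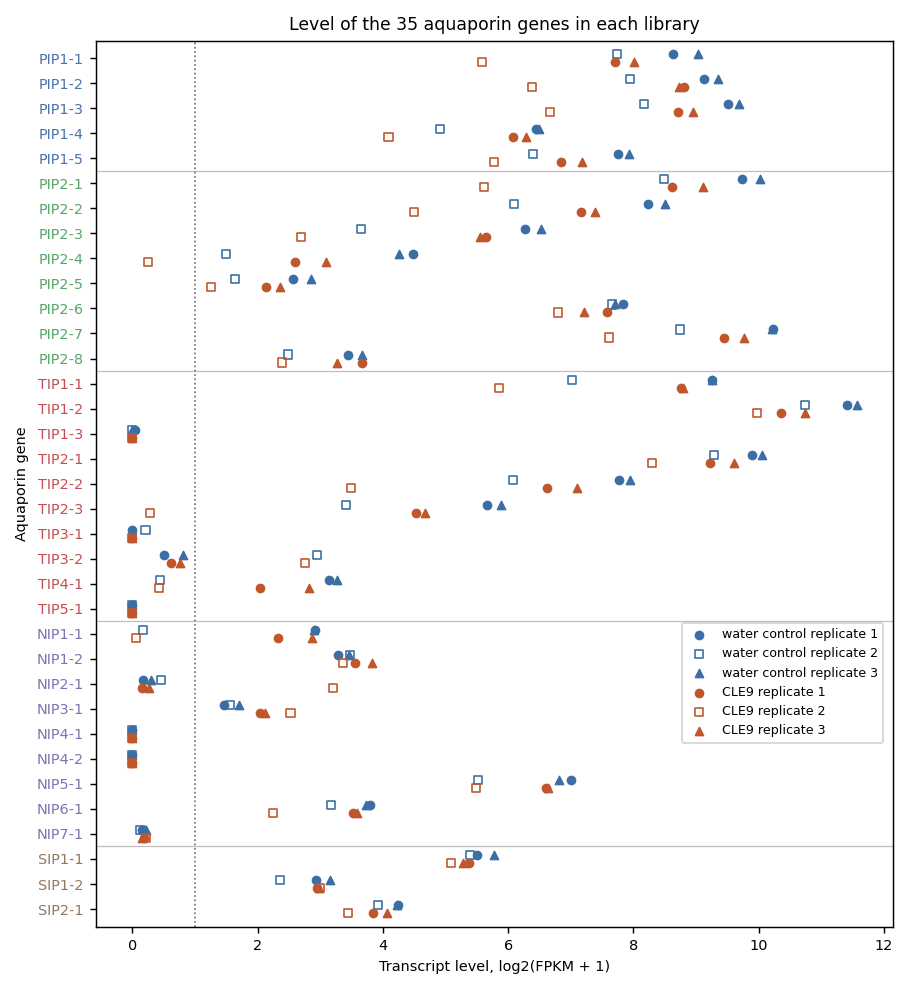
Level of each of the 35 aquaporin genes in each library, on the log2(FPKM + 1) scale. Blue symbols are the 3 water controls and orange symbols the 3 CLE9 libraries, open squares mark replicate 2, and the dotted line is 1 FPKM. In most PIP and TIP genes both open squares lie left of the filled symbols of their group.

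Most PIP1, PIP2 and TIP genes had lower values with CLE9, whereas the differences of NIP and SIP genes were mostly smaller. In replicate numbers 1, 2 and 3 the median log2 difference was -0.80, -1.51 and -0.73 over PIP1 genes, -0.70, -1.04 and -0.71 over PIP2 genes and -1.06, -0.99 and -0.47 over tested TIP genes. The summed level of PIP1 genes was 1979, 859 and 2326 FPKM in control replicates 1, 2 and 3 and 1250.0, 299 and 1395 FPKM in CLE9. The PIP2 sum was 2679, 1076 and 2923 FPKM in water and 1489, 386 and 1801 FPKM in CLE9. The TIP sum was 4549, 2538 and 5033 FPKM in water and 2455, 1395 and 3090.2 FPKM in CLE9. In all 3 subfamilies the sum was lower with CLE9 in each replicate number, but the groups overlapped in all 3. Control replicate 2 lay below CLE9 replicates 1 and 3 for PIP1 and PIP2, and below CLE9 replicate 3 for TIP. Within replicate numbers 1, 2 and 3 the CLE9 to control ratio of the sum was 0.632, 0.348 and 0.600 for PIP1, 0.556, 0.359 and 0.616 for PIP2 and 0.540, 0.550 and 0.614 for TIP. The same ratios were 0.794, 1.07 and 0.925 for NIP and 0.884, 0.840 and 0.764 for SIP.

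**Figure D2:**
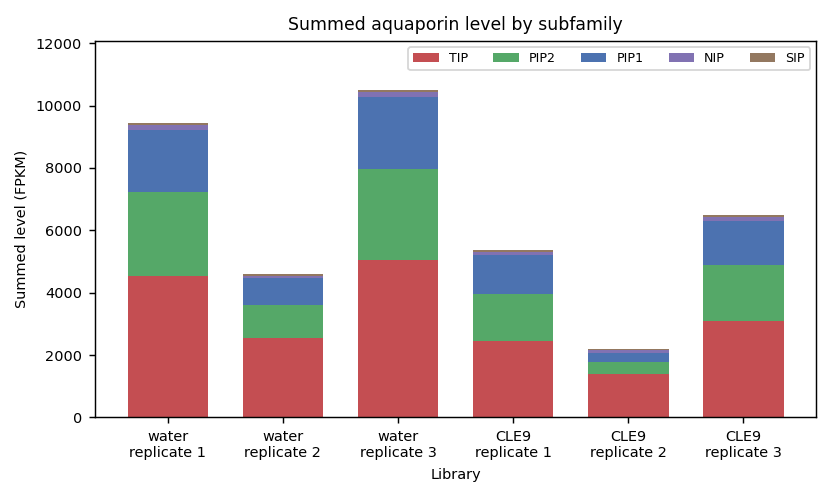
Summed level of the aquaporin genes in each library in FPKM, stacked by subfamily with bars starting at 0. The total was 9434, 4598 and 10504 FPKM in the controls and 5380.0, 2201 and 6479 FPKM in CLE9, and replicate 2 held the lowest total of each group.

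Single genes were compared on the log2(FPKM + 1) scale, on which a difference of 1 in an abundant gene is a factor of 2, and changes of genes near 1 FPKM are understated. With limma fitted to group only, 0 of the 29 genes passed an adjusted p of 0.05, in either direction. Over all genes tested that fit called 0.00561% lower and 0% higher. At an unadjusted p under 0.05, 0 aquaporin genes were lower (3.07% of all genes tested) and 1, NIP3-1, was higher (5.83%). With the replicate number as a block, 1 aquaporin gene passed as lower, PIP2-4 (0.247% of all genes tested were called lower), and 0 passed as higher (1.75%). In that blocked fit 13 of 29 genes were lower at an unadjusted p under 0.05 (9.45% of all genes tested) and 1 was higher (11.2%). The 13 were PIP1-1, PIP1-2, PIP1-3, PIP1-5, PIP2-1, PIP2-2, PIP2-3, PIP2-4, PIP2-5, PIP2-7, TIP1-1, TIP2-2 and TIP2-3.

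The direction within replicate numbers was the more uniform measure. Of all 35 genes 23 were lower with CLE9 in each of the 3 replicate numbers and 1, NIP3-1, was higher in each. All 23 lay among the 29 genes tested. Over all genes tested 26.0% were lower and 19.8% higher in each. Taken singly, 24 of 29 genes were lower in replicate number 1, 26 in replicate number 2 and 27 in replicate number 3, against 54.1%, 54.1% and 54.3% of all genes tested. By subfamily, 5 of 5 PIP1, 7 of 8 PIP2, 6 of 7 tested TIP, 3 of 6 tested NIP and 2 of 3 SIP genes were lower in each. The libraries of the 3 replicate numbers come from 1 experiment and were scaled together, and members of the family are not independent of each other, so these counts are a description. The groups themselves did not overlap for 2 lower genes, PIP2-6 and SIP1-1 (7.47% of all genes tested), and for 1 higher gene, NIP3-1 (8.51%).

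The median log2 difference was -0.84 over the 5 PIP1 genes, -0.82 over the 8 PIP2 genes and -0.71 over the 7 tested TIP genes. It was -0.02 over the 6 tested NIP genes and -0.30 over the 3 SIP genes, and -0.05 over all genes tested. The NIP value rested on NIP2-1, which passed the filter through a single library. Without it, a choice made after its values were seen, the median of the other 5 NIP genes was -0.21. These medians depended on replicate 2. Leaving out CLE9 replicate 2 gave -0.29 for PIP1, -0.23 for PIP2 and -0.38 for TIP, and leaving out control replicate 2 gave -1.27, -1.52 and -1.44. For PIP2 the median was -0.51 when control replicate 1 was dropped, -0.54 when control replicate 3 was dropped and -1.25 when CLE9 replicate 3 was dropped, and for TIP it was -1.07 in the last case. Without both replicate 2 libraries the medians were -0.77 for PIP1, -0.71 for PIP2 and -0.77 for TIP. All these TIP medians include TIP3-2, which was at no more than 0.755 FPKM outside replicate 2.

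With both replicate 2 libraries left out, in a comparison of 2 libraries with 2 that was chosen with earlier results of these data known, limma called 9 aquaporin genes lower (2.95% of all genes tested) and 0 higher (8.41%). The 9 were PIP1-1, PIP1-3, PIP1-5, PIP2-1, PIP2-2, PIP2-3, PIP2-4, TIP2-2 and TIP2-3. With the block kept 8 were lower, all but PIP1-3 (2.47%), and 0 higher (8.03%). These 4 libraries are among the 6 of the other fits, so the calls are no separate support. Of the 29 differences, 25 moved by over 1.5 times or changed sign without CLE9 replicate 2, 15 without control replicate 2 and 10 without both. Leaving out any other single library did so for between 8 and 13 genes.

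**Figure D3:**
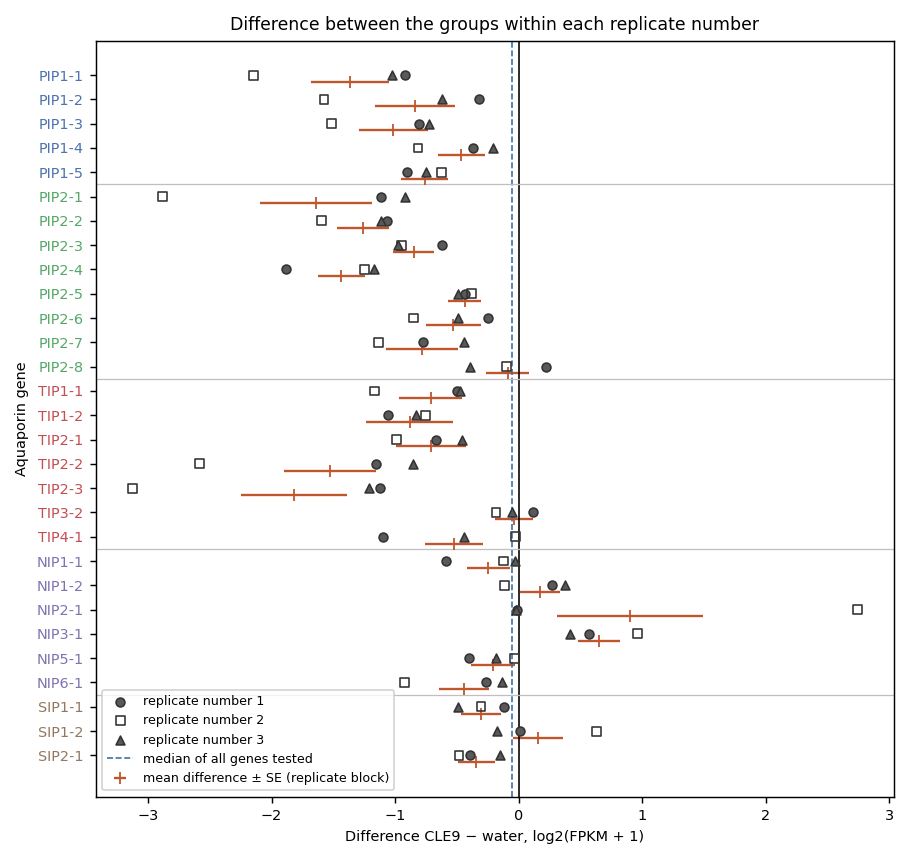
Difference between CLE9 and water within each replicate number for the 29 aquaporin genes tested, on the log2(FPKM + 1) scale. Symbols are the 3 replicate numbers, orange bars the mean difference ± SE of the blocked fit, and the dashed line the median of all genes tested (-0.05). The PIP1, PIP2 and TIP symbols lie mostly left of 0, the NIP and SIP symbols on both sides.

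PIP1 proteins are poor water channels on their own and reach the plasma membrane together with PIP2 partners. PIP1-3 (AT1G01620), the most abundant of them, was at 727, 288 and 818 FPKM in control replicates 1, 2 and 3 and at 416, 100.2 and 493 FPKM in CLE9. Both replicate 2 libraries were low, and control replicate 2 lay below CLE9 replicates 1 and 3, which made the groups overlap. The log2 difference was -1.02 ± 0.73 (SE, limma adjusted p = 0.752 with group only).

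PIP1-2 (AT2G45960), a channel of root and leaf water flow, was at 557, 246 and 652 FPKM in water and at 446, 82.0 and 424 FPKM in CLE9. The log2 difference was -0.84 ± 0.76 (limma adjusted p = 0.800), and -0.041 without CLE9 replicate 2 alone. PIP1-1 (AT3G61430) was at 395, 212 and 523 FPKM in water and at 208, 47.0 and 257 FPKM in CLE9. Its control replicate 2 lay level with CLE9 replicate 1, and its difference was -1.36 ± 0.72 (limma adjusted p = 0.668). PIP1-5 (AT4G23400) was at 214, 83.4 and 244 FPKM in water and at 114, 53.7 and 144 FPKM in CLE9. It differed by -0.91, -0.62 and -0.75 in replicate numbers 1, 2 and 3, so that replicate 2 did not give the largest of its differences. The mean was -0.76 ± 0.55 (limma adjusted p = 0.751). PIP1-4 (AT4G00430), known to carry hydrogen peroxide into cells during immune responses, had the smallest difference of the 5 genes (-0.46 ± 0.72). It was at 86.0, 28.9 and 89.1 FPKM in water and at 66.4, 16.0 and 77.1 FPKM in CLE9. With both replicate 2 libraries left out, the difference was -0.97 for PIP1-1 (limma adjusted p = 0.0375), -0.77 for PIP1-3 (0.0468) and -0.83 for PIP1-5 (0.0362), which passed, and -0.47 for PIP1-2 (0.139) and -0.29 for PIP1-4 (0.260), which did not.

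PIP2 proteins are the efficient water channels of the plasma membrane, and several also pass hydrogen peroxide. PIP2-4 (AT5G60660, chromosome 5, 24375457 to 24376989, minus strand), known mainly from roots, fell in the blocked fit. It was at 21.4, 1.83 and 18.2 FPKM in control replicates 1, 2 and 3 and at 5.06, 0.191 and 7.53 FPKM in CLE9. Each CLE9 library lay below the control of its number, by -1.88, -1.25 and -1.17 on the log2(FPKM + 1) scale. Its replicate 2 values were near or under 1 FPKM, where that scale understates a change. Control replicate 2 lay below CLE9 replicates 1 and 3. The mean difference was -1.43 ± 0.19 (SE with the block, limma adjusted p = 0.0435), against ± 1.06 and an adjusted p of 0.759 with group only. The blocked call was lost without replicate 1 or replicate 3, with a pseudocount of 0.1 and without the filter on low values. With the pseudocount of 0.1 the blocked difference was -2.02 (limma adjusted p = 0.0692). Without both replicate 2 libraries the difference was -1.53 ± 0.20 (limma adjusted p = 0.00806).

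PIP2-7 (AT4G35100), the most abundant PIP gene, was at 1194, 429 and 1187 FPKM in water and at 697, 195 and 871 FPKM in CLE9. It was lower in each replicate number, by -0.78, -1.13 and -0.45, with overlapping groups (mean -0.78 ± 0.71, limma adjusted p = 0.799). PIP2-1 (AT3G53420), a channel of guard cells and roots that the kinases OST1 and BAK1 phosphorylate, was at 849, 359 and 1037 FPKM in water and at 391, 47.8 and 549 FPKM in CLE9. Its difference was -1.12, -2.88 and -0.92 in replicate numbers 1, 2 and 3, the widest range of any PIP gene (mean -1.64 ± 0.99, limma adjusted p = 0.713). Without both replicate 2 libraries the difference was -1.02 for PIP2-1 (limma adjusted p = 0.0453) and -0.61 for PIP2-7 (0.105).

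The near-identical PIP2-2 and PIP2-3 had similar differences. PIP2-2 (AT2G37170) was at 298, 67.5 and 364 FPKM in water and at 142, 21.7 and 167 FPKM in CLE9. PIP2-3 (AT2G37180), first described as a desiccation-responsive gene, was at 75.9, 11.5 and 91.3 FPKM in water and at 49.0, 5.49 and 45.8 FPKM in CLE9. The mean difference was -1.26 ± 0.99 for PIP2-2 (limma adjusted p = 0.771) and -0.85 ± 1.09 for PIP2-3 (0.865). Since reads may have been divided between them, their sum was also fitted. The sum was 374, 79.0 and 455 FPKM in water and 191, 27.1 and 213 FPKM in CLE9, a difference of -1.19 ± 1.02 (limma adjusted p = 0.788 without and 0.0628 with the block). PIP2-3 held between 14.6% and 25.7% of the sum in the 6 libraries. In the other 4 libraries PIP2-2 differed by -1.09 (limma adjusted p = 0.0150) and PIP2-3 by -0.80 (0.0242).

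PIP2-6 (AT2G39010), known from leaves, behaved differently in replicate 2. It was at 227, 200.1 and 208 FPKM in water and at 191, 110.3 and 148 FPKM in CLE9, and every CLE9 library lay below every control. Control replicate 2 was only 0.12 log2 units below the mean of the other controls, the smallest departure of any PIP gene in the controls. The mean difference was -0.53 ± 0.26 (limma adjusted p = 0.640). PIP2-5 (AT3G54820) was at 4.90, 2.11 and 6.25 FPKM in water and at 3.37, 1.38 and 4.15 FPKM in CLE9. It differed by -0.43, -0.38 and -0.49 (mean -0.44 ± 0.43, limma adjusted p = 0.812). PIP2-8 (AT2G16850) was the exception, at 9.89, 4.62 and 11.7 FPKM in water and at 11.7, 4.24 and 8.65 FPKM in CLE9. It was higher in replicate number 1 (0.22) and lower in the others (-0.10 and -0.39), a mean of -0.09 ± 0.44. When both replicate 2 libraries were left out, these 3 genes differed by -0.37 for PIP2-6, -0.46 for PIP2-5 and -0.085 for PIP2-8 (limma adjusted p between 0.156 and 0.812).

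TIP genes encode channels of the vacuolar membrane. TIP1-2 (AT3G26520) was at 2716, 1701 and 3043 FPKM in water and at 1305, 1008 and 1709 FPKM in CLE9. CLE9 replicate 3 lay just above control replicate 2, and all other CLE9 values lay below all controls. The difference was -1.06, -0.75 and -0.83 in replicate numbers 1, 2 and 3 (mean -0.88 ± 0.40, limma adjusted p = 0.611).

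TIP2-1 (AT3G16240), which also passes ammonia, was at 949.8, 626 and 1065 FPKM in water and at 596, 315 and 774 FPKM in CLE9 (mean -0.71 ± 0.43, limma adjusted p = 0.717). Its interval overlaps that of AT3G16250 on the other strand by 120 bases, a gene that was at no more than 41.4 FPKM. TIP1-1 (AT2G36830) was at 608, 128 and 611 FPKM in water and at 431, 56.6 and 439.8 FPKM in CLE9. In replicate numbers 1 and 3 it differed by -0.50 and -0.47, less than TIP1-2 (mean -0.71 ± 1.01, limma adjusted p = 0.882).

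TIP2-3 and TIP2-2, a pair of related channel genes known mainly from roots, had the widest ranges of difference among the TIP genes. TIP2-3 (AT5G47450) was at 49.5, 9.66 and 58.3 FPKM in water and at 22.2, 0.221 and 24.6 FPKM in CLE9. It differed by -1.13, -3.13 and -1.21 (mean -1.82 ± 1.34, limma adjusted p = 0.756). TIP2-2 (AT4G17340) was at 218, 66.6 and 246 FPKM in water and at 97.4, 10.3 and 136 FPKM in CLE9. It differed by -1.15, -2.58 and -0.85 (mean -1.53 ± 1.05, limma adjusted p = 0.738). In both genes CLE9 replicates 1 and 3 lay above control replicate 2 and below the other controls. TIP4-1 (AT2G25810), another gene known from roots, was at 7.78, 0.364 and 8.60 FPKM in water and at 3.10, 0.339 and 6.06 FPKM in CLE9, and its 2 replicate 2 libraries were nearly level. Without both replicate 2 libraries the difference was -1.17 for TIP2-3 (limma adjusted p = 0.00667) and -1.0 for TIP2-2 (0.0315), which passed. It was -0.94 for TIP1-2 (0.0511), -0.57 for TIP2-1, -0.48 for TIP1-1 and -0.77 for TIP4-1, which did not.

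TIP3-2 (AT1G17810), a channel of seed storage vacuoles, was high in replicate 2 of both groups. It was at 0.413, 6.69 and 0.755 FPKM in water and at 0.535, 5.77 and 0.688 FPKM in CLE9. The groups overlapped and differed by -0.04 ± 0.85. In the other direction from all PIP genes, it was 2.29 log2 units above the other controls in control replicate 2 and 2.07 above the other CLE9 libraries in CLE9 replicate 2. Its interval overlaps that of AT1G17820 on the other strand by 91 bases, a gene at between 4.24 and 4.97 FPKM.

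NIP genes gave a mixed picture. NIP5-1 (AT4G10380), a plasma membrane channel for boric acid uptake and the most abundant NIP gene, was at 128, 44.9 and 112 FPKM in water and at 96.6, 43.8 and 98.2 FPKM in CLE9. The replicate 2 libraries were nearly level, and the difference was -0.21 ± 0.51 (limma adjusted p = 0.942). NIP1-2 (AT4G18910) was at 8.76, 10.2 and 9.96 FPKM in water and at 10.8, 9.31 and 13.2 FPKM in CLE9. It was higher in replicate numbers 1 and 3 and lower in replicate number 2 (mean 0.18 ± 0.18, limma adjusted p = 0.816).

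NIP3-1 (AT1G31885), a channel known for arsenite, was the 1 gene of the family that was higher with CLE9 in every replicate number. It was at 1.75, 1.96 and 2.25 FPKM in water and at 3.09, 4.76 and 3.33 FPKM in CLE9, and the groups did not overlap. The difference was 0.65 ± 0.20 (unadjusted p = 0.0156 and adjusted p = 0.409 in the limma fit with group only, adjusted p = 0.124 with the block), so it did not pass. NIP6-1 (AT1G80760), a boric acid channel of stem nodes, was lower in each replicate number, by -0.27, -0.92 and -0.13. NIP1-1 (AT4G19030) was at 6.57, 0.130 and 6.46 FPKM in water and at 4.04, 0.0371 and 6.32 FPKM in CLE9, and both replicate 2 libraries were near 0. In replicates 1 and 3 alone 0 NIP genes passed. The difference was then 0.49 for NIP3-1 (limma adjusted p = 0.107), 0.32 for NIP1-2, -0.29 for NIP5-1, -0.20 for NIP6-1 and -0.31 for NIP1-1.

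NIP2-1 (AT2G34390), a lactic acid channel known to be induced by low oxygen, was high in a single library. It was at 0.124, 0.380 and 0.228 FPKM in water and at 0.115, 8.24 and 0.208 FPKM in CLE9. Its mean difference of 0.90 ± 0.83 rested on CLE9 replicate 2, and without that library it was -0.09. NIP2-1 overlaps by 30 bases AT2G34380 on the other strand, a gene at between 1.88 and 3.53 FPKM.

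SIP genes encode channels of the endoplasmic reticulum and differed little between the groups. SIP1-1 (AT3G04090) was at 44.1, 41.1 and 53.4 FPKM in water and at 40.6, 33.1 and 37.7 FPKM in CLE9, and every CLE9 library lay just below every control (mean -0.30 ± 0.18, limma adjusted p = 0.713). SIP2-1 (AT3G56950) was at 17.8, 14.2 and 17.6 FPKM in water and at 13.3, 9.88 and 15.7 FPKM in CLE9 (mean -0.34 ± 0.21, limma adjusted p = 0.718). It overlaps by 147 bases AT3G56940 on the other strand, a gene at between 205 and 1203 FPKM. No source used here says if strand was used in counting. SIP1-2 (AT5G18290) lay between 4.13 and 7.94 FPKM in all 6 libraries, and AT5G18300 lies within its interval on the other strand. In replicates 1 and 3 alone the difference was -0.30 for SIP1-1, -0.27 for SIP2-1 and -0.081 for SIP1-2 (limma adjusted p between 0.262 and 0.764).

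The departure of replicate 2 was as large as the difference between the groups in many of these genes. All 13 PIP genes and 6 of 7 tested TIP genes were below both other libraries of their group in replicate 2 of both groups. Of all 29 genes 24 were (45.8% of all genes tested), with 25 in the controls (59.6%) and 25 with CLE9 (57.4%). Control replicate 2 lay a median of 1.42 log2 units below the mean of the other controls over the 13 PIP genes (-1.42), and CLE9 replicate 2 had a median of -2.16. The same medians were -0.19 and -0.23 over all genes tested.

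**Figure D4:**
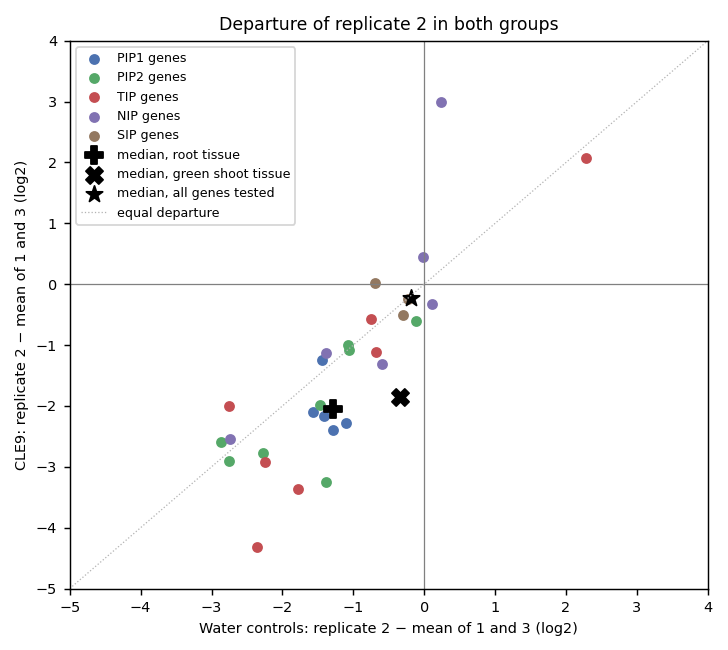
Departure of replicate 2 from the mean of replicates 1 and 3 on the log2(FPKM + 1) scale, in the water controls (horizontal axis) and with CLE9 (vertical axis). Coloured points are the 29 aquaporin genes tested, black symbols the medians of 16 root tissue genes, 12 green shoot tissue genes and all genes tested, and the dotted line marks equal departures. Most PIP and TIP genes lie below and left of the median of all genes tested.

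The libraries are whole seedlings, in which root and shoot cannot be separated, and fewer cells of a type and less RNA per cell cannot be told apart. Many of these aquaporins are known mainly from roots, so tissue genes were read in the same libraries. Of 18 root tissue genes 16 were tested and the other 2 (HKT1 and WOX5) had a mean under 1 FPKM. Their sum over all 18 was 239, 95.2 and 216 FPKM in water and 166, 53.9 and 212 FPKM in CLE9, which is a CLE9 to control ratio of 0.697, 0.566 and 0.981 in replicate numbers 1, 2 and 3. The median difference of the 16 was -0.30, -1.0 and 0.01. In replicate 2 they had a median departure of -1.29 in the controls and -2.05 with CLE9, close to those of the PIP genes. For 12 green shoot tissue genes the sum was between 25236 and 30181 FPKM in controls, and 28466, 8534 and 24831 FPKM in CLE9, ratios of 0.944, 0.338 and 0.823. The median difference of these 12 was -0.15, -1.96 and -0.41. In replicate 2 their median departure was -0.33 in the controls and -1.85 with CLE9. Over all 6 libraries the median log2 difference was -0.80 for the 12 shoot genes and -0.55 for the 16 root genes. The root genes were thus low beside the aquaporins in replicate 2 of both groups and the shoot genes mainly in CLE9 replicate 2, and their part in the result was not tested. In replicate numbers 1, 2 and 3 the summed aquaporins were at ratios of 0.570, 0.479 and 0.617, beside 0.697, 0.566 and 0.981 for the root genes. All 18 root and 12 shoot genes were listed above 0 in every library except RSL4, a root hair gene, which was at 0 in CLE9 replicate 2. Genes known to respond to touch and wounding also set replicate 2 apart, in the other direction. The sum of 9 such genes was 802, 4063 and 744 FPKM in water and 1661, 3940.3 and 1592 FPKM in CLE9, and their median departure in replicate 2 was 3.45 in the controls and 3.06 with CLE9. Their part in the aquaporin values was not tested either.

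Other genes linked to aquaporins were read from a list of 16 regulators and partners, of which 14 were tested. With group only 0 passed in either direction. With the block 2 rose, BAK1 and CPK7 (1.75% of all genes tested), and 0 fell (0.247%). BAK1, the co-receptor kinase that also phosphorylates PIP2-1 in guard cells, differed by 1.49 ± 0.20 (SE with the block, limma adjusted p = 0.0435). CPK7, a calcium-dependent kinase reported to lower the amount of PIP2-1 protein, was at 15.7, 22.0 and 16.99 FPKM in water and at 35.5, 44.2 and 33.4 FPKM in CLE9. Every CLE9 library lay above every control, and the difference was 1.01 ± 0.15 (limma adjusted p = 0.0478 with the block and 0.255 with group only). Both blocked calls were lost with a pseudocount of 0.1, without the filter on low values, and without replicate 1 or replicate 3 (limma adjusted p between 0.0632 and 0.271). Of the 14 genes 4 were higher in each replicate number (19.8% of all genes tested), these 2 together with the receptor kinase gene QSK1 and the syntaxin gene SYP121, whose product helps to bring PIP proteins to the plasma membrane. Another 4 were lower in each, namely RMA2, HRA1 and the boron exporters BOR1 and BOR2, a count near the share of all genes tested (26.0%). Without both replicate 2 libraries 4 of the 14 passed as higher (8.41% of all genes tested) and 2 as lower (2.95%). The median difference of the list was -0.06.

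Most genes induced by water deficit and abscisic acid did not move one way across the replicate numbers. Of 10 listed genes 7 were tested, and 0 passed in either fit of all 6 libraries. Of these 7, 2 were lower in each replicate number, RD20 and the proline synthesis gene P5CS1, near the share of all genes tested (26.0%). In the other direction 0 were higher in each (19.8%). RD20 and P5CS1 both passed as lower without the replicate 2 libraries (2.95%). P5CS1 was at 11.4, 9.15 and 11.5 FPKM in water and at 5.73, 3.34 and 7.07 FPKM in CLE9. It was the only tested gene of the list whose groups did not overlap (7.47% of all genes tested were lower without overlap). The untested genes had means under 1 FPKM. Of them RD29B and NCED3 were lower in each replicate number, also without overlap, and HAI1 was not. The median difference of the 7 was -0.35 over all 6 libraries, and -0.04, -1.10 and 0.01 in replicate numbers 1, 2 and 3.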

How the data were processed

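Libraries were made from total seedling RNA with a NEBNext Ultra kit, per the labels' protocols. The deposited file holds FPKM per gene, per the file headers. For alignment and quantification tools the submitters' processing notes list featureCounts 1.5.0-p3, HISAT2 2.0.5 and StringTie 1.3.3b, beside CASAVA 1.8 and DESeq2 1.16.1, on build TAIR10, but no roles. The tool behind the FPKM and the treatment of strand are not given in the sources used here.

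Depth was estimated from whole multiples of 1 fragment in 5061 single-exon genes. The depth taken was the one at which low values lay nearest to whole fragments. Of the low values 40.1% to 46.1% then lay within 0.1 of a whole fragment. The 20% given by chance holds for a depth fixed beforehand, so it is no chance level for these shares. The depth is approximate and reads could not be recovered.

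The 17812 genes whose mean across all libraries reached 1 FPKM were fitted as log2(FPKM + 1) with limma 3.58.1 in R 4.3.3, group only, empirical Bayes with a mean-variance trend, two-sided, with Benjamini-Hochberg adjustment over all genes tested and a threshold of 0.05. The fit was also run on simulated data in which no library stood apart as replicate 2 did, so that run does not cover this feature of the data. Differences are CLE9 minus control. No test was run over a gene list.

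Both groups carry replicate numbers 1 to 3 in their titles. The block and the differences within replicate numbers follow these titles. Deviations from the group means correlated at 0.545, 0.743 and 0.583 between same-numbered libraries. Deviations cancel within a group, and replicate 2 stood apart in both groups, so replicates 1 and 3 shared the opposite deviation. Positive values for replicates 1 and 3 can therefore arise without any pairing and cannot decide whether the titles mark pairs. The data favour the titles' pairs for replicate 2 only, since the best match of control replicate 1 was CLE9 replicate 3 (0.664) and that of control replicate 3 was CLE9 replicate 1 (0.620). Blocked values are given where they change a call.

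Alternatives were other pseudocounts, filters, scalings, weights, the block and leaving out libraries. Named in full are genes called or with an unadjusted p under 0.05 in either fit, the 2 most abundant of each subfamily, and PIP2-2 with PIP2-3. The remaining tested genes are named to account for every member. The family, the lists and these choices were made with earlier results of these data known.

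Sequences were read from RefSeq build TAIR10.1 at its own coordinates. All 35 loci matched by identifier, and 9 had the same start as in the deposited table. Coding sequences were aligned with Biopython 1.88. Protein sequences were not analysed here.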

Additional observations from a re-analysis of the deposited data

How the results depend on the processing

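The count of aquaporin genes called with group only was 0 and stayed 0 under a pseudocount of 0.1, other filters, quantile or median-of-ratios scaling, no trend, and leaving out any single library. It was 1 with the replicate block, 8 with array weights, 9 without both replicate 2 libraries and 8 with those left out and the block kept. The 8 with array weights were 6 lower and 2 higher (NIP3-1 and NIP1-2). The count over all genes was 1. It was 3 without a filter, 3 with a minimum of 5 FPKM, 2 with quantile normalization, 355 with the block, 4884 with array weights, 2024 without both replicate 2 libraries, and between 0 and 204 with single libraries left out. At the settings of the reported fit, the replicate block, which pairs the libraries, changed the call of PIP2-4 alone among the aquaporins. Settings of the blocked fit were added after the data were seen. Its count of 1 was 0 with a pseudocount of 0.1, 0 without a filter, 3 with quantile normalization, 2 with median-of-ratios scaling, 3 with array weights, 0 without the block, and between 0 and 8 with single pairs left out.

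With single libraries left out, medians ranged from -1.27 to -0.29 for PIP1, -1.52 to -0.23 for PIP2, -1.44 to -0.38 for TIP, -0.21 to 0.23 for NIP and -0.38 to -0.17 for SIP. The NIP median was -0.21 with a minimum of 5 FPKM, where fewer genes were tested, and -0.11 without both replicate 2 libraries. The SIP median was -0.20 with array weights. Of 429 values of single genes under an alternative, 21 changed sign. TIP3-2 did so with array weights (0.19) and without both replicate 2 libraries (0.031), as did NIP2-1 (-0.017) and SIP1-2 (-0.081) without those 2. The others came from leaving out single libraries, where the ranges were -0.98 to 0.23 for PIP1-4, -1.77 to 0.12 for PIP2-3, -0.44 to 0.27 for PIP2-8, -1.46 to 0.26 for TIP1-1, -0.73 to 0.72 for TIP3-2, -1.44 to 0.15 for TIP4-1, -1.16 to 0.60 for NIP1-1, -0.095 to 1.43 for NIP2-1, -0.67 to 0.17 for NIP5-1 and -0.073 to 0.33 for SIP1-2. The cause was not tested.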

Other observations

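The 250 bases before the RefSeq gene start (build TAIR10.1) were searched on both strands for 4 short motifs, chosen with earlier results of these data known. The W-box core TTGAC, bound by WRKY factors, occurred before 19 of the 35 aquaporin genes and 9 of the 20 tested PIP and TIP genes, against 44.9% of 27443 protein-coding genes. The abscisic acid element core ACGTG occurred before 4 of 35 and 1 of 20 (22.9%), the G-box CACGTG, which contains it, before 0 (6.5%), and the core CCGAC of the drought and cold element before 4 of 35 and 4 of 20 (12.0%). A match is a description of letters and not a binding site. Both windows below belong to genes that were lower with CLE9 in each replicate number. That of PIP2-4 (chr5:24377207-24377456, minus strand) holds none of the motifs, and that of PIP1-3 (chr1:227544-227793, minus strand) holds 1 CCGAC and 1 TTGAC on the opposite strand, in capitals.
PIP2-4: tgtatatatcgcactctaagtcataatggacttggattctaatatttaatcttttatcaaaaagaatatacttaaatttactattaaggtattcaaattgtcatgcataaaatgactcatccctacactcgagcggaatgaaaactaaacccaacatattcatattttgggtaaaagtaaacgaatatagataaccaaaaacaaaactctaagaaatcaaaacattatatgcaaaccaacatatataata
PIP1-3: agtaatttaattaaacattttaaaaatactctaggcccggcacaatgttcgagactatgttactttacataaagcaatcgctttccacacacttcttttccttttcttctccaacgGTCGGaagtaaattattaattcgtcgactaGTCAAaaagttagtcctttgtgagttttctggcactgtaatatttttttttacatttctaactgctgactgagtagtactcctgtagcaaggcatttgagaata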
